A study of Mus musculus with 2 samples.

Results

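The genes described are the 8 that encode the mouse colony-stimulating factors and their receptor chains: the ligands *Csf1*, *Il34*, *Csf2* and *Csf3* and the receptor chains *Csf1r*, *Csf2ra*, *Csf2rb* and *Csf3r*. They were taken by symbol from the 31053 genes of the count matrices, and each symbol matched 1 row. Their UMIs (unique molecular identifiers, each standing for 1 captured RNA molecule) were followed as ligand source and as receptor target through the cell classes of 2 single-cell RNA-seq libraries of skin wounds. The rule that chose them used no measured value, but earlier results of these data were known when they were chosen.

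Live cells (7AAD-negative) of back-skin wounds were captured 5 days after wounding with 10x Chromium 3′ v3 chemistry, from C57BL/6 mice 7 to 9 weeks old, and each library pooled 3 mice. 1 library is labelled as treated with PBS and 1 with diphtheria toxin (DTX), and both carry the genotype *Mrc1-DTR* in their labels, a line in which the diphtheria toxin receptor is under the *Mrc1* promoter (*Mrc1* encodes CD206), so that toxin kills cells that use this promoter. The study's text instead describes its controls as wild-type mice given toxin, and it attaches the cell numbers of the libraries to the opposite groups. The libraries are called control (labelled PBS) and *Mrc1-DTR* (labelled DTX) below, and every direction rests on these labels.

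With 1 library per group, differences between mice and between captures could not be estimated, and no test or p-value is given. Intervals in brackets are 95% intervals of counting error alone. After the filters, 7944 control and 6613 *Mrc1-DTR* cells were kept, with medians of 9579.5 and 7286 UMIs per cell and 81235634 and 54872675 UMIs in all, and 37 barcodes occurred in both libraries. *Mrc1* itself stood at 490 [476 to 505] CPM (UMIs of the gene per 1000000 UMIs of the class) in control and 429 [422 to 436] CPM in *Mrc1-DTR* macrophage-like cells. At full depth 72.1% and 65.4% of these cells held a UMI of it, so the gene was lower in *Mrc1-DTR* but still common there. Composition differed more: macrophage-like cells were 23.0% of control and 68.6% of *Mrc1-DTR* cells, neutrophil-like cells 1.61% and 6.97%, fibroblast-like cells 38.6% and 9.92%, and epithelial-like cells 26.0% and 3.55%. Markers of one class were also counted in others, and how they came there was not tested. The summed level of 8 neutrophil markers in macrophage-like cells was 811 and 1445 CPM, that of 10 macrophage markers in neutrophil-like cells 6712 and 7989 CPM, and that of 9 fibroblast markers in neutrophil-like cells 2154 and 338 CPM.

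Colony-stimulating factors are secreted cytokines that keep myeloid cells alive and drive their growth and maturation. CSF1 (M-CSF) and IL-34 are unrelated in sequence yet share 1 receptor, the tyrosine kinase CSF1R, which macrophages and Langerhans cells need. CSF2 (GM-CSF) binds a specific alpha chain, CSF2RA, which signals only together with the common beta chain CSF2RB, also used by the receptors of interleukin 3 and interleukin 5. CSF3 (G-CSF) acts through CSF3R, the main receptor for the production and release of neutrophils. In skin, IL-34 from keratinocytes maintains Langerhans cells, and stromal cells are a known source of CSF1.

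In the GRCm38 build with GENCODE annotation all 8 are protein-coding genes. *Csf1* (ENSMUSG00000014599) lies at chr3:107741048-107760469 on the minus strand, *Csf3r* (ENSMUSG00000028859) at chr4:126024550-126044440 on the plus strand and *Il34* (ENSMUSG00000031750) at chr8:110741829-110805924 on the minus strand. Chromosome 11 holds both *Csf2* (ENSMUSG00000018916, chr11:54247271-54249667, minus) and *Csf3* (ENSMUSG00000038067, chr11:98701263-98703629, plus). *Csf2rb* (ENSMUSG00000071713, chr15:78325752-78353847, plus) has a near-identical neighbour, *Csf2rb2* (ENSMUSG00000071714, chr15:78282507-78305721, minus), whose beta chain serves interleukin 3 only. Reads that fit both genes cannot be placed, so the values of this pair are uncertain relative to each other. The file names *Csf1r* as ENSMUSG00000024621, and *Csf2ra* (ENSMUSG00000059326) lies at chr19:61223957-61228429 on the minus strand.

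The 250 bases before the RefSeq start of *Csf1*, the member with most stromal UMIs, and of *Csf2ra*, whose level divided the myeloid classes from all others, are shown as they read 5′ to 3′ on the gene's strand (RefSeq, GRCm38.p6). They are chr3:107760470-107760719 and chr19:61228419-61228668, both minus strand. Capitals mark matches, on either strand, to a motif of NF-kB (GGG and CC around 5 free bases), AP-1 (TGANTCA), PU.1 (GAGGAAG) or C/EBP (TTNNGNAA).
Csf1: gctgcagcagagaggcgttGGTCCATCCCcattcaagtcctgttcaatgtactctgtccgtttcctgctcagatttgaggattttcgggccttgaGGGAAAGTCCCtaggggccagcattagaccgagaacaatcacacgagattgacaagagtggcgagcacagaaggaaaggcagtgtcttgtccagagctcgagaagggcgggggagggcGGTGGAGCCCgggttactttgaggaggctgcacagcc
Csf2ra: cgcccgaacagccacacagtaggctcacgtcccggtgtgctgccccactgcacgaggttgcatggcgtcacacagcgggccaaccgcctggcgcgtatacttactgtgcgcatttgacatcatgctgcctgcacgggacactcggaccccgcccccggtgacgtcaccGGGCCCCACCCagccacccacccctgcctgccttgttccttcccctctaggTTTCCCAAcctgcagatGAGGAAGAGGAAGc

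The *Csf1* window held 4 NF-kB matches, beginning 231, 155, 154 and 37 bases before the start, of which the middle pair overlap, and no match to the other 3 motifs. The *Csf2ra* window held 2 overlapping NF-kB matches at 82 and 81 bases, 1 C/EBP match at 31 bases and 2 PU.1 matches at 14 and 8 bases that share 1 base. Over the 250-base windows of 32851 RefSeq starts, 45.8% held the NF-kB letters, 36.8% the C/EBP letters, 10.6% the PU.1 letters and 6.75% the AP-1 letters. Promoter entries were found for 4 of the 8 members. The *Csf3r* window held 1 NF-kB and 1 PU.1 match (129 and 86 bases before its RefSeq start), the *Csf2* window 1 C/EBP match at 145 bases, and the window of *Csf2rb2* 1 PU.1 match at 168 bases. The *Csf2* window (chr11:54249900-54250149) does not reach the GENCODE gene, and the bases between were not searched. The *Csf3r* window (chr4:126024409-126024658) runs into the GENCODE gene. These are matches of letters, not sites.

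**Figure D1:**
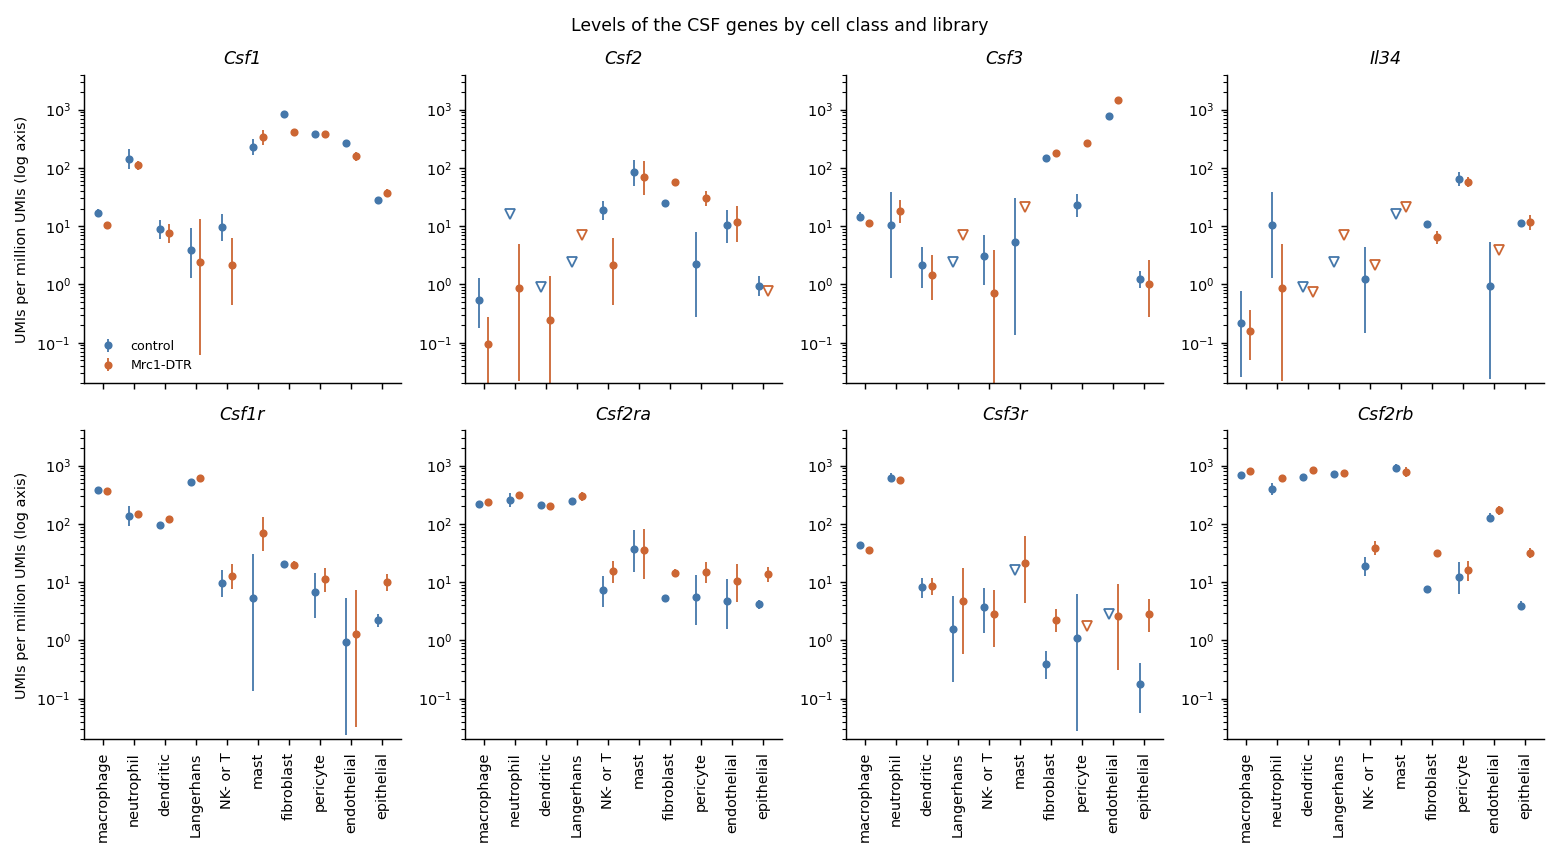
Level of each of the 8 genes (CPM, log axis) in each cell class of the control and the *Mrc1-DTR* library; lines through the points are 95% Poisson intervals and open triangles mark the level of 3 counts where no UMI was found. *Csf1*, *Csf3* and *Il34* stand highest in fibroblast-like, endothelial-like and pericyte-like cells and the receptor chains in classes of blood origin, with *Csf3* at 775 and 1435 CPM in endothelial-like cells and *Csf3r* at 622 and 559 CPM in neutrophil-like cells.

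Ligands and receptors had separate leading classes, though some classes held both. Neutrophil-like cells held *Csf1* at 144 and 112 CPM beside their receptor chains, and endothelial-like cells held *Csf2rb* at 128 and 171 CPM beside *Csf3*. Mast-like cells, left out of the ranking for their number, had the highest *Csf2* level, as given below. In each library the leading class of every ligand, among the 8 classes with at least 50 cells in both libraries (which leaves out mast-like and Langerhans-like cells), was stromal or vascular, and that of every receptor chain was myeloid. A gap of 5-fold or more to the next class was reached by 3 of the 8 members in control (*Il34* in pericyte-like, *Csf3* in endothelial-like and *Csf3r* in neutrophil-like cells) and by 2 in *Mrc1-DTR* (*Csf3* and *Csf3r*). Over all genes this share was 10.3% in control and 10.4% in *Mrc1-DTR*. *Csf3r* had the widest gap, 14.1 times the next class in control and 15.6 times in *Mrc1-DTR*.

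*Csf1* was the most abundant ligand, and fibroblast-like cells were its main source in control. They held 29310 of its UMIs in control and 3954 in *Mrc1-DTR*, or 837 and 407 CPM, a log2 ratio of -1.04 [-1.09 to -0.99]. At an equal depth of 1000 UMIs per cell, 45.2% [43.4 to 47.0] of fibroblast-like cells in control and 28.5% [25.1 to 32.1] in *Mrc1-DTR* held a *Csf1* UMI. At full depth these shares were 87.2% and 74.7%, with median depths of 11177 and 13978 UMIs, so the higher depth of the *Mrc1-DTR* cells lay on the side of the lower share. The neutrophil-like class, taken as the background of this gene, gave 16.7% and 10.1% at equal depth with medians of 1223.5 and 1922 UMIs. Lower shares stood in other classes, with 2.81% and 3.0% of epithelial-like cells and 1.89% and 1.11% of macrophage-like cells.

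Pericyte-like cells, the contractile cells around small vessels, held *Csf1* at 386 CPM in control and 374 CPM in *Mrc1-DTR* (345 and 629 UMIs), a log2 ratio of -0.04 [-0.24 to 0.15]. The level of fibroblast-like cells thus stood at 2.17 times that of pericyte-like cells in control and at 1.09 times in *Mrc1-DTR*. Endothelial-like cells held 264 and 160 CPM (log2 ratio -0.73 [-1.04 to -0.41]). Summed fibroblast markers stood at 16303 and 10916 CPM in pericyte-like and at 2595 and 139 CPM in endothelial-like cells. The part of fibroblast RNA in the ligand levels of these classes, here and below, was not tested. The few mast-like cells (34 and 18), whose cluster was also led by the basophil markers *Mcpt8* and *Prss34*, held 230 and 340 CPM, and neutrophil-like cells 144 and 112 CPM, from 27 and 128 UMIs. Epithelial-like cells held 28.6 and 37.6 CPM and macrophage-like cells 17.0 and 10.7 CPM (log2 ratio -0.68 [-0.95 to -0.39]). The summed level of the 9 fibroblast markers in macrophage-like cells was 749 CPM in control and 153 CPM in *Mrc1-DTR*. The part of fibroblast RNA in their *Csf1* was not tested, so no direction is read for macrophage-like cells.

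The fibroblast-like cells fell into 6 subclusters, and *Csf1* differed among them. Subcluster 2, led by *Ctla2a* and *Gpx3*, held most, at 1512 CPM in control and 640 CPM in *Mrc1-DTR* (log2 ratio -1.24). Subcluster 1, led by *Igfbp2* and *Grem1*, held 813 and 315 CPM (-1.37), and subcluster 3, led by *Coch* and *Fmod*, 459 and 235 CPM (-0.97). The *Plac8*-like subcluster 0, named from markers of lower wound fibroblasts, held 515 and 464 CPM (-0.15 [-0.22 to -0.08]). Of the small ones, subcluster 4 (48 and 45 cells) held 603 and 206 CPM (-1.55), with macrophage genes among its leading genes, and subcluster 5, led by *Apod* (20 and 24 cells), held 444 and 605 CPM (0.45 [-0.03 to 0.94]). The subclusters also differed in size between the libraries. Subclusters 1 and 2 made up 33.5% and 24.2% of control but 14.6% and 9.30% of *Mrc1-DTR* fibroblast-like cells, while subcluster 3 went from 12.4% to 20.4%. The *Plac8*-like subcluster made up 27.6% of control and 45.1% of *Mrc1-DTR* fibroblast-like cells. Reweighting the control levels to the *Mrc1-DTR* subcluster mix gave a log2 change of -0.40, and the levels within subclusters accounted for the other -0.64 of the -1.04.

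**Figure D2:**
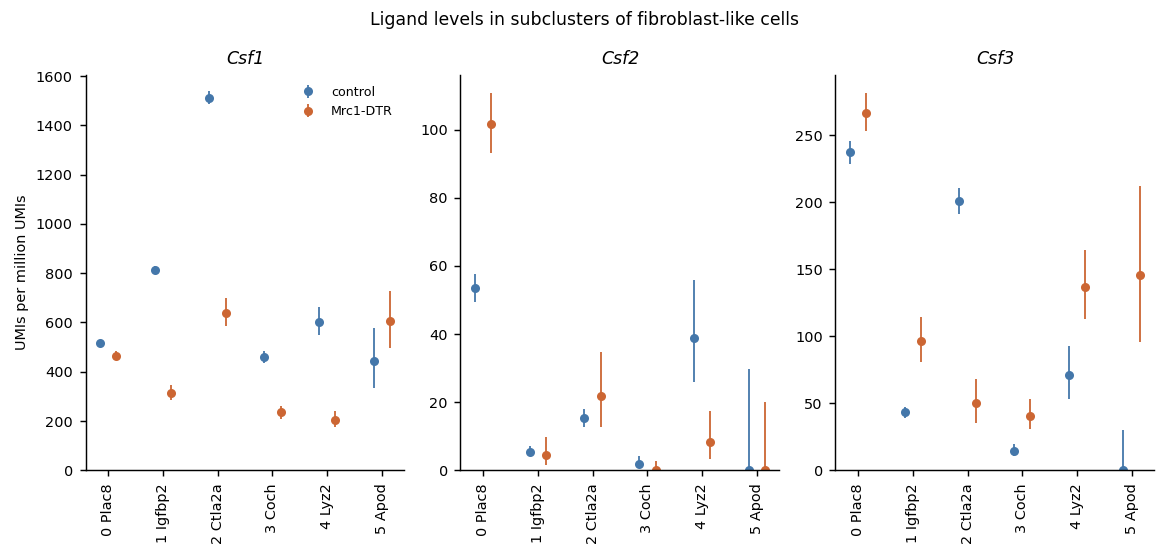
Levels of *Csf1*, *Csf2* and *Csf3* (CPM, linear axes from 0 with a scale of their own in each panel) in the 6 fibroblast-like subclusters of the control (blue) and *Mrc1-DTR* (orange) libraries, with 95% Poisson intervals; each subcluster is labelled by its number and a marker or leading gene. *Csf1* stands at 1512 and 640 CPM in subcluster 2 and at 515 and 464 CPM in the *Plac8*-like subcluster 0, which also holds the highest *Csf2*, 53.4 and 102 CPM.

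Over the whole library, fibroblast-like cells gave 94.5% of the *Csf1* UMIs of control and 73.2% of those of *Mrc1-DTR*, where pericyte-like cells gave 11.6% and macrophage-like cells 6.24%. All kept cells together held 382 CPM of *Csf1* in control and 98.4 CPM in *Mrc1-DTR* (31022 and 5400 UMIs, log2 ratio -1.96). Of this, a log2 change of -1.08 came from control levels with the *Mrc1-DTR* weights of the classes and -0.87 from the levels within classes. A level over a whole library weighs each class by its captured RNA, and capture of a cell type and its number in the tissue cannot be told apart.

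*Il34*, the second ligand of CSF1R, was a low gene with 771 and 211 UMIs in all kept cells. Its highest level was in pericyte-like cells, 64.9 CPM in control and 57.7 CPM in *Mrc1-DTR* (58 and 97 UMIs), where 50.8% and 45.5% of cells held a UMI at full depth (medians 13628 and 14579.5 UMIs). NK- or T-like cells, the background class for this gene, held 2 and 0 UMIs. At equal depth 0 of 224 control and 0 of 151 *Mrc1-DTR* NK- or T-like cells held one, which allows shares of up to 1.34% and 1.99% by the limit of 3 counts (1.63% and 2.41% by the Clopper-Pearson interval). Epithelial-like cells, the keratinocyte class, held 11.4 and 11.6 CPM (326 and 45 UMIs, log2 ratio 0.02 [-0.47 to 0.47]), and their shares with a UMI were 12.7% and 15.3% at full depth and 0.969% and 1.72% at equal depth. Within them the spinous-like subcluster, led by *Krt1* and *Krt10*, held 17.5 CPM in control from 199 UMIs and 13.6 CPM in *Mrc1-DTR* from 15 UMIs.

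Fibroblast-like cells held *Il34* at 10.8 and 6.48 CPM (380 and 63 UMIs, log2 ratio -0.74 [-1.15 to -0.35]). The share of the library's *Il34* that came from pericyte-like cells was 7.52% in control and 46.0% in *Mrc1-DTR*, that from fibroblast-like cells 49.3% and 29.9%, and that from epithelial-like cells 42.3% and 21.3%. The pericyte-like level itself differed little, with a log2 ratio of -0.17 [-0.65 to 0.33]. Over all kept cells *Il34* was at 9.49 and 3.85 CPM (log2 ratio -1.30).

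**Figure D3:**
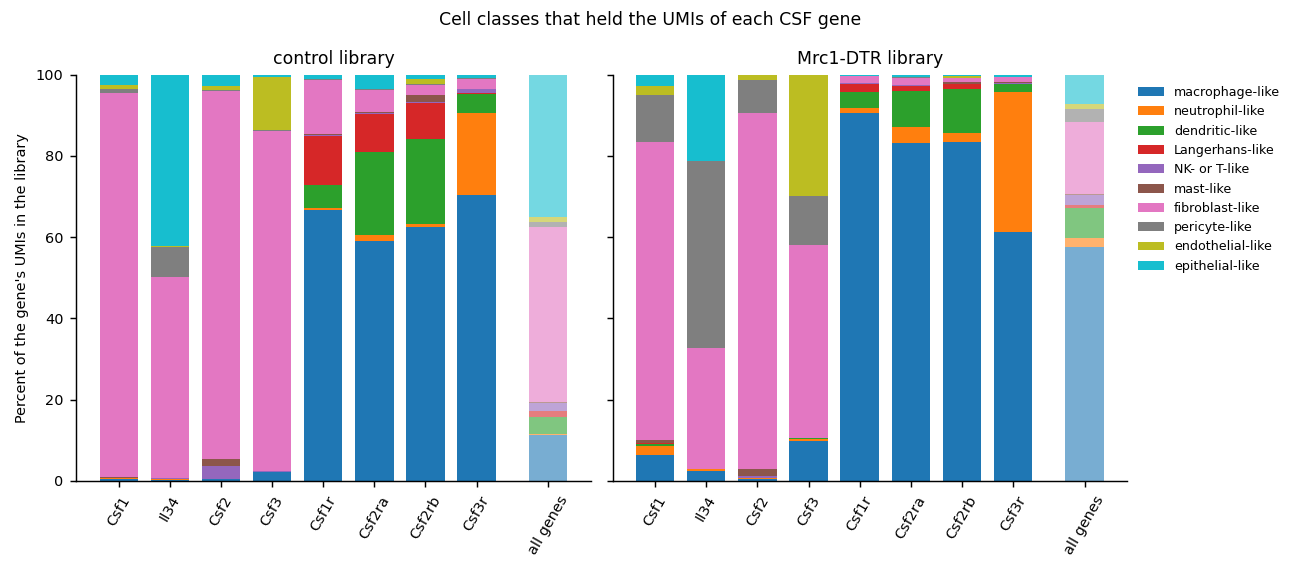
Share of each library's UMIs of the 4 ligands and 4 receptor chains that each cell class holds, in percent, as stacked bars that start at 0; the paler bar gives the same for the UMIs of all genes. Fibroblast-like cells hold 94.5% of *Csf1* in control and 73.2% in *Mrc1-DTR*, and macrophage-like cells 66.5% and 90.5% of *Csf1r*.

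*Csf2*, the gene of GM-CSF, was found mainly in fibroblast-like cells, which gave 90.6% of its UMIs in control and 87.8% in *Mrc1-DTR*. Their level was 25.4 CPM in control (890 UMIs) and 57.9 CPM in *Mrc1-DTR* (563 UMIs), a log2 ratio of 1.19 [1.03 to 1.34]. Few cells carried it: 6.59% and 10.4% had a UMI at full depth, and 1.60% [1.19 to 2.11] and 3.52% [2.25 to 5.24] at equal depth. In *Mrc1-DTR*, 50% or more of the UMIs lay in 9 cells, against 37 cells in control. Without the 5 cells that held most in each library the log2 ratio was 0.76.

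The *Plac8*-like subcluster held 672 of the 890 control and 533 of the 563 *Mrc1-DTR* *Csf2* UMIs of fibroblast-like cells. Its own level was 53.4 and 102 CPM, a log2 ratio of 0.93. The changed weights of all fibroblast-like subclusters together gave 0.44 of the log2 ratio of fibroblast-like cells and the levels within subclusters 0.75. Over all kept cells *Csf2* was nearly level, 12.1 and 11.7 CPM (log2 ratio -0.05 [-0.20 to 0.10]), with -1.06 from class weights and 1.01 from levels within classes.

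Pericyte-like cells held 2 *Csf2* UMIs in control and 51 in *Mrc1-DTR* (2.24 and 30.4 CPM, log2 ratio 3.76 [1.84 to 6.85]), and 5 cells held 84.3% of the latter. Without the 5 cells with most in each library the counts were 0 and 8 UMIs, and the interval of the log2 ratio began at -0.18. NK- or T-like cells held 31 UMIs in control and 3 in *Mrc1-DTR* (19.0 and 2.12 CPM, log2 ratio -3.17 [-5.52 to -1.49]). Of the 31, 21 lay in 1 cell, and without the cell that held most in each library the log2 ratio was -2.13 [-5.36 to 0.10]. No direction is read for NK- or T-like cells. Mast-like cells had the highest level, 85.7 and 70.7 CPM, but from 16 and 10 UMIs, of which 1 cell held 8 in control and 1 cell all 10 in *Mrc1-DTR*. Epithelial-like cells held 27 and 0 UMIs, and 10 of the 27 lay in 1 cell and 18 in 5 cells. With epithelial-like subcluster 6 left out, which held no *Csf2* UMI, the interval of the log2 ratio reached up to 0.22. No direction is therefore read for epithelial-like cells. Macrophage-like cells held 5 and 3 UMIs.

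*Csf3*, the gene of G-CSF, was led by endothelial-like cells, which line the vessels. They held 775 CPM in control (813 UMIs) and 1435 CPM in *Mrc1-DTR* (1105 UMIs), a log2 ratio of 0.89 [0.76 to 1.02]. Of 73 control cells 32.9% [22.3 to 44.9] had a UMI at equal depth, and of 54 *Mrc1-DTR* cells 51.9% [37.8 to 65.7], with median depths of 12239 and 12620.5 UMIs. In NK- or T-like cells, the background class for this gene (medians 6534 and 8059 UMIs), the shares were 0.893% (2 of 224 cells) and 0 of 151 cells, which allows up to 1.99%. At full depth 49.3% and 79.6% of endothelial-like cells had a UMI. Without the 5 cells with most in each library the log2 ratio was 1.20.

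In pericyte-like cells *Csf3* stood at 23.5 CPM in control (21 UMIs in 6 of 61 cells) and 268 CPM in *Mrc1-DTR* (451 UMIs in 28 of 112 cells), a log2 ratio of 3.51 [2.89 to 4.22]. The share of cells with a UMI was 9.84% and 25.0%. 3 of the *Mrc1-DTR* cells held 50% or more of the UMIs, and without the cell with most in each library the log2 ratio was 3.5. Fibroblast-like cells held 149 and 181 CPM (5213 and 1763 UMIs, log2 ratio 0.29 [0.21 to 0.36]), but 1 *Mrc1-DTR* cell held 399 of the 1763. Without the cell with most in each library the log2 ratio was -0.04 [-0.13 to 0.04], and without the 5 with most -0.31, so no direction is read for fibroblast-like cells. Their shares with a UMI were 4.45% [3.75 to 5.24] and 6.43% [4.67 to 8.59] at equal depth.

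The fibroblast-like subclusters differed in *Csf3*. The *Plac8*-like subcluster held most, 237 CPM in control and 267 CPM in *Mrc1-DTR*. Subcluster 2 held 201 and 49.9 CPM (log2 ratio -2.01), the latter from 39 UMIs of which 21 lay in 1 cell, whereas subcluster 1 held 43.2 and 96.6 CPM (1.16) and subcluster 3 held 14.8 and 40.7 CPM (1.46). In subcluster 3, 54 of the 55 *Mrc1-DTR* UMIs lay in 1 cell, and in subcluster 1, 2 cells held 50% or more. Over the whole library fibroblast-like cells gave 83.7% of *Csf3* in control and 47.5% in *Mrc1-DTR*, endothelial-like cells 13.0% and 29.8%, and pericyte-like cells 12.2% in *Mrc1-DTR*. Macrophage-like cells, at 14.5 and 11.4 CPM, gave 2.15% and 9.70%, and all kept cells together held 76.7 and 67.6 CPM.

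*Csf1r* marked the macrophage lineage. Langerhans-like cells, the macrophage-related cells of the epidermis, had the highest level, 513 CPM in control and 622 CPM in *Mrc1-DTR*, from 122 and 37 cells. Macrophage-like cells held 386 CPM in control (3556 UMIs) and 363 CPM in *Mrc1-DTR* (11461 UMIs), a log2 ratio of -0.09 [-0.14 to -0.03]. Their share with a UMI at equal depth was 30.3% [28.2 to 32.5] and 29.8% [28.5 to 31.2], against 0.339% and 0.429% in the epithelial-like background class. Median depths were 4828 and 6768 UMIs in macrophage-like and 12592 and 16070 UMIs in epithelial-like cells, and at full depth the shares were 73.8% and 83.0% against 2.37% and 6.81%.

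Neutrophil-like cells held *Csf1r* at 138 and 146 CPM (26 and 167 UMIs), beside macrophage markers at the summed levels given above, whose part in this value was not tested. Dendritic-like cells held 94.5 and 123 CPM (log2 ratio 0.37 [0.17 to 0.58]). Macrophage markers in dendritic-like cells summed to 2879 and 2359 CPM, and their part in this value was not tested either. Macrophage-like cells held 66.5% of the *Csf1r* of control and 90.5% of that of *Mrc1-DTR*, and Langerhans-like cells 12.1% and 2.05%. All kept cells together held 65.8 and 231 CPM (log2 ratio 1.81). Class weights alone gave 1.87 of this and levels within classes -0.06, so the difference lay in the class weights.

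*Csf2ra*, the specific chain of the GM-CSF receptor, stood in 3 myeloid classes at similar levels. Neutrophil-like cells held 261 CPM in control and 309 CPM in *Mrc1-DTR* (49 and 354 UMIs), macrophage-like cells 218 and 240 CPM (2011 and 7598 UMIs, log2 ratio 0.14 [0.07 to 0.21]) and dendritic-like cells 213 and 199 CPM (log2 ratio -0.10 [-0.25 to 0.05]). Langerhans-like cells held 252 and 302 CPM. In control the intervals of these 4 levels overlapped, and no order is read among them. At equal depth 15.3% [13.6 to 17.0] of macrophage-like cells in control and 20.2% [19.0 to 21.4] in *Mrc1-DTR* held a UMI, against 0.388% and 1.72% of epithelial-like cells.

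*Csf2rb*, the common beta chain, was the most abundant of the receptor transcripts. Macrophage-like cells held 692 CPM in control (6380 UMIs) and 817 CPM in *Mrc1-DTR* (25812 UMIs), a log2 ratio of 0.24 [0.20 to 0.28], with equal-depth shares of 42.3% [40.0 to 44.6] and 50.8% [49.4 to 52.3]. Dendritic-like cells held 647 and 828 CPM (log2 ratio 0.36 [0.28 to 0.43]) and neutrophil-like cells 404 and 615 CPM (76 and 706 UMIs, log2 ratio 0.61 [0.26 to 0.97]). Mast-like cells, which can respond to interleukin 3 through this chain, held 916 and 785 CPM from 171 and 111 UMIs. Langerhans-like cells held 710 and 747 CPM. The epithelial-like background at equal depth was 0.291% and 1.29%.

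The chain was also present without its GM-CSF partner. Endothelial-like cells held *Csf2rb* at 128 and 171 CPM (134 and 132 UMIs) and *Csf2rb2* at 71.5 and 161 CPM, but *Csf2ra* with only 5 and 8 UMIs and *Csf1r* with 1 and 1. Equal-depth shares for *Csf2rb* there were 15.1% and 14.8%. *Il3ra*, the alpha chain for interleukin 3, had 35 and 35 UMIs in these cells. In NK- or T-like cells *Csf2rb* had 31 and 55 UMIs, of which 5 *Mrc1-DTR* cells held 52.

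Cells with UMIs of both GM-CSF receptor chains were counted at equal depth, since the receptor needs both. Macrophage-like cells with both numbered 126 of 1803 (6.99%) in control and 475 of 4506 (10.5%) in *Mrc1-DTR*, dendritic-like cells 33 (9.91%) and 43 (12.5%), and neutrophil-like cells 5 of 108 (4.63%) and 53 of 457 (11.6%). In macrophage-like cells the products of the single shares were 6.45% and 10.3%, in dendritic-like cells 8.69% and 9.85% and in neutrophil-like cells 6.90% and 10.7%. The intervals of the neutrophil-like shares with both chains, [1.52 to 10.5] and [8.81 to 14.9], overlapped. *Csf2ra* was too rare in fibroblast-like and endothelial-like cells for such a count to be informative. Cells with both *Csf1* and *Csf1r* were 33 (1.08%) of control and 2 (0.306%) of *Mrc1-DTR* fibroblast-like cells, where the products were 0.946% and 0.480%, and cells with both *Csf1r* and *Csf3r* 24 (1.33%) and 41 (0.910%) of macrophage-like cells.

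*Csf3r* was the most class-bound member. Neutrophil-like cells held 622 CPM in control (117 UMIs) and 559 CPM in *Mrc1-DTR* (641 UMIs), a log2 ratio of -0.16 [-0.44 to 0.14]. Their equal-depth shares were 50% [40.2 to 59.8] and 43.5% [38.9 to 48.2], and 52.3% and 66.4% at full depth. The epithelial-like class had 0 of 2064 and 0 of 233 cells at equal depth, which allows up to 0.145% and 1.29%.

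Macrophage-like cells held *Csf3r* at 44.1 CPM in control (407 UMIs) and 35.8 CPM in *Mrc1-DTR* (1132 UMIs), a log2 ratio of -0.30 [-0.47 to -0.13]. Being numerous, they gave 70.3% and 61.1% of the library's *Csf3r*, and neutrophil-like cells 20.2% and 34.6%. Relative to the summed neutrophil markers, *Csf3r* made up 5.44% and 2.48% in macrophage-like cells but 1.40% and 0.611% in neutrophil-like cells. The part of neutrophil RNA in the macrophage-like value was not tested. Over all kept cells *Csf3r* was at 7.13 and 33.8 CPM (log2 ratio 2.24), with 2.46 from class weights and -0.22 from levels within classes.

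**Figure D4:**
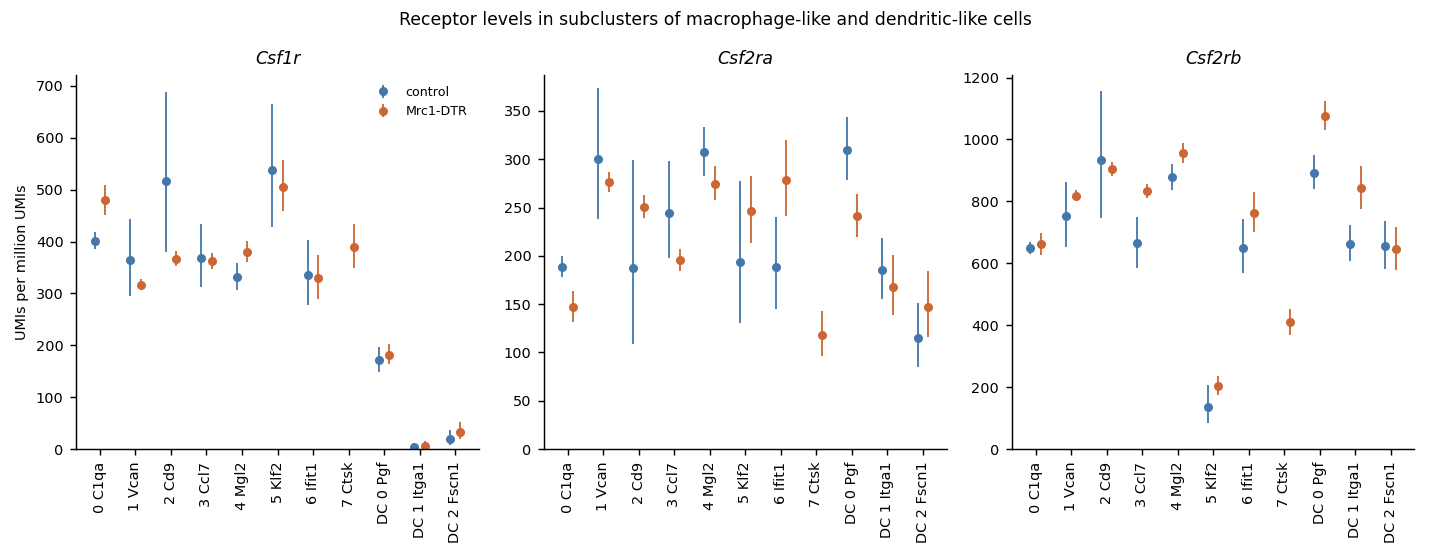
Levels of *Csf1r*, *Csf2ra* and *Csf2rb* (CPM, linear axes from 0 with a scale of their own in each panel) in the macrophage-like subclusters and in 3 dendritic-like subclusters (DC) of the control (blue) and *Mrc1-DTR* (orange) libraries, with 95% Poisson intervals; values from fewer than 10 cells are left out and each subcluster is labelled by its number and a marker or leading gene. The *Klf2*-like subcluster 5 has low *Csf2rb* (136 and 204 CPM) beside high *Csf1r* (537 and 506 CPM).

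The macrophage-like subclusters shifted most in number, from 1301 of 1829 *C1qa*-like cells in control to 396 of 4535 in *Mrc1-DTR*, where *Vcan*-like (1323), *Cd9*-like (1145) and *Ccl7*-led (1007) cells prevailed. In *C1qa*-like cells *Csf1r* was 401 and 479 CPM (log2 ratio 0.26), *Csf2ra* 189 and 147 CPM (-0.36) and *Csf2rb* 649 and 661 CPM. In *Vcan*-like cells, of which control had 46, *Csf1r* was 363 and 317 CPM, *Csf2ra* 300 and 276 CPM and *Csf2rb* 753 and 818 CPM. Within the *Mrc1-DTR* library, *C1qa*-like cells thus had more *Csf1r* and less *Csf2ra* than *Vcan*-like cells.

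*Cd9*-like cells (17 in control) held *Csf1r* at 517 and 367 CPM and *Csf2rb* at 935 and 904 CPM, and *Ccl7*-led cells *Csf2rb* at 664 and 834 CPM (0.33). The *Klf2*-like subcluster stood apart with *Csf2rb* at 136 and 204 CPM while its *Csf1r* was 537 and 506 CPM, the reverse of the order in other macrophage-like subclusters. Its leading genes included *Hspa1a* and *Fos*, genes of heat shock and early response. The subcluster led by *Mgl2* and *H2-Ab1* held *Csf2rb* at 878 and 956 CPM, and it held the ligand *Csf3* at 28.8 CPM in control and 3.93 CPM in *Mrc1-DTR* (53 and 14 UMIs, log2 ratio -2.87). Fibroblast markers in this subcluster summed to 673 and 126 CPM, and the part of fibroblast RNA in its *Csf3* was not tested. A subcluster led by *Ctsk*, *Acp5* and *Mmp9*, genes of osteoclast-type cells, had 1 control and 68 *Mrc1-DTR* cells, with *Csf1r* at 390, *Csf2ra* at 118 and *Csf2rb* at 409 CPM in the latter.

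Dendritic-like subclusters differed in *Csf1r* and in *Csf2rb*. The cDC2-like subcluster held *Csf1r* at 171 and 182 CPM, with *Csf2ra* at 310 and 241 CPM and *Csf2rb* at 893 and 1077 CPM. Its macrophage markers summed to 4290 and 2583 CPM, and the part of macrophage RNA in these values was not tested. An unnamed subcluster led by *Itga1* held *Csf2rb* at 663 and 842 CPM but almost no *Csf1r*. The mature-like subcluster led by *Fscn1* held *Csf1r* at 18.4 and 32.5 CPM and *Csf2rb* at 656 and 645 CPM. Subcluster 3, led by *Apod* and *Cd7*, held *Csf1r* at 68.6 and 100.2 CPM and the lowest *Csf2rb*, 178 and 217 CPM. Subcluster 4, led by genes of cell division and by the macrophage genes *C1qa* and *C1qb*, held *Csf1r* at 142 and 170 CPM and *Csf2rb* at 464 and 537 CPM.

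Counting UMIs of one chain against another within a class avoids its total. Macrophage-like cells had 0.557 *Csf1r* UMIs per *Csf2rb* UMI in control and 0.444 in *Mrc1-DTR*, dendritic-like cells 0.146 and 0.148, Langerhans-like cells 0.723 and 0.833, and endothelial-like cells 0.0075 and 0.0076. Since UMIs come from 3′ ends and capture differs by transcript, such a ratio compares libraries and classes, not molecules of protein. Over all kept cells the *Csf1* UMIs per *Csf1r* UMI were 5.81 in control and 0.426 in *Mrc1-DTR*, 13.6 times fewer. The same ratio went from 0.144 to 0.0167 for *Il34* per *Csf1r*, from 0.288 to 0.0701 for *Csf2* per *Csf2ra*, and from 10.8 to 2.00 for *Csf3* per *Csf3r*, so each ligand had fewer UMIs per receptor UMI in *Mrc1-DTR*. Class weights alone lowered each ligand and raised each receptor chain over all kept cells. Levels within classes ran the same way as the weights for *Csf1* and *Il34*, by a log2 change of -0.87 and -0.41. For *Csf2* and *Csf3* they ran the other way, by 1.01 and 0.53.

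**Figure D5:**
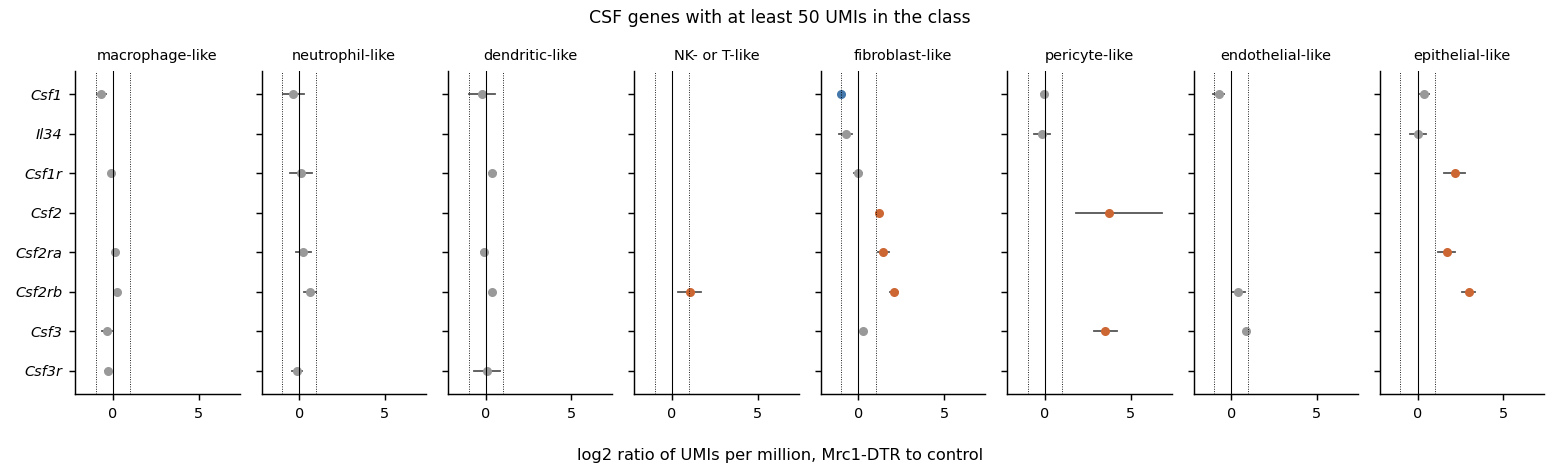
Log2 ratio of the level in *Mrc1-DTR* to that in control for each member and class with at least 50 UMIs in both libraries together, with 95% intervals of counting error; dotted lines mark 2-fold, orange is at least 2-fold higher and blue at least 2-fold lower. Of 36 pairs of member and class 10 lie past 2-fold, among them *Csf1* at -1.04 in fibroblast-like and *Csf3* at 3.51 in pericyte-like cells. Of all genes tested, 2.4% were at least 2-fold lower in fibroblast-like and 2.36% at least 2-fold higher in pericyte-like cells, and the text gives the other classes.

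Past 2-fold between the libraries lay 10 of the 36 pairs of member and class that had at least 50 UMIs. In fibroblast-like cells 3 of 7 members were higher (*Csf2*, *Csf2ra* and *Csf2rb*), where 3.81% of all genes tested were, and 1 was lower (*Csf1*), where 2.4% were. In pericyte-like cells 2 of 4 were higher (*Csf2* and *Csf3*; 2.36% of all genes higher, 2.27% lower). In epithelial-like cells 3 of 5 were higher (*Csf1r*, *Csf2ra* and *Csf2rb*), where 3.98% of all genes were higher and 3.33% lower. In NK- or T-like cells the only member tested, *Csf2rb*, had a log2 ratio of 1.03 (1.29% of all genes higher, 1.34% lower). It rested on 31 control and 55 *Mrc1-DTR* UMIs, of which 5 cells held 24 and 52, so no direction is read for it. No member passed 2-fold in macrophage-like cells (0 of 6; 2.51% of all genes higher, 4.64% lower), neutrophil-like cells (0 of 5; 6.24% and 4.31%), dendritic-like cells (0 of 5; 1.51% and 1.66%) or endothelial-like cells (0 of 3; 1.96% and 2.83%).

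The receptor chains that were higher in fibroblast-like and epithelial-like cells stood beside macrophage markers that were higher too. In fibroblast-like cells the summed level of the 10 macrophage markers was 139 CPM in control and 504 CPM in *Mrc1-DTR*, and in epithelial-like cells 128 and 549 CPM. Fibroblast-like subcluster 4 (48 and 45 cells), led by *Cd74*, *Lyz2* and *H2-Aa*, held 97 of the 263 control and 246 of the 311 *Mrc1-DTR* *Csf2rb* UMIs. Without it the log2 ratio in fibroblast-like cells was 0.60 [0.16 to 1.02] for *Csf2rb* in place of 2.09 and 0.44 [-0.02 to 0.88] for *Csf2ra* in place of 1.45, and the macrophage markers were at 92.1 and 145 CPM. For *Csf1* it was -0.98.

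*Csf1r* in fibroblast-like cells, 20.5 and 20.0 CPM, also depended on subcluster 4: with it the log2 ratio was -0.04 [-0.27 to 0.19], and without it the levels were 20.3 and 10.7 CPM (695 and 95 UMIs, log2 ratio -0.92 [-1.25 to -0.61]). In the remaining cells there were 4.19 *Csf1r* UMIs per *Csf2rb* UMI in control and 1.46 in *Mrc1-DTR*, while macrophage-like cells had 0.557 and 0.444. The largest number of *Csf1r* UMIs in a control cell of the class was 6. The part of macrophage RNA in this value was not tested. In subclusters 1 and 3 *Csf1r* was 26.6 and 15.1 CPM in control and 13.6 and 4.44 CPM in *Mrc1-DTR*. The *Plac8*-like subcluster 0 held 12.6 and 9.92 CPM (log2 ratio -0.34 [-0.82 to 0.12]). In subcluster 2, 21.7% of control and 19.7% of *Mrc1-DTR* cells held a UMI at full depth (220 and 19 UMIs). The mix of subclusters also differed between the libraries, and its part in the -0.92 was not separated. Epithelial-like subcluster 6 (24 and 16 cells) was led by *Lyz2* and *Cd74*. Without it the log2 ratio of *Csf1r* in epithelial-like cells was -0.51 [-2.86 to 1.16] in place of 2.18 (34 and 3 UMIs). That of *Csf2ra* was 1.06 [0.37 to 1.71] in place of 1.71 (95 and 25 UMIs). For *Csf2rb* it was 1.49 [0.62 to 2.29] in place of 3.0 (51 and 18 UMIs). Both *Csf2ra* and *Csf2rb* stayed past 2-fold while the macrophage markers were at 93.5 and 113 CPM. The part of macrophage RNA in these values was not tested.

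Other genes of the pathways were read from 5 lists. The lists were chosen with earlier results of these data known, so their counts only describe these libraries. Of 6 genes responsive to GM-CSF, 4 were past 2-fold lower in *Mrc1-DTR* macrophage-like cells, where 4.64% of all genes tested were. The class was mostly *C1qa*-like cells in control (1301 of 1829) and not in *Mrc1-DTR* (396 of 4535). A change of mix and a change within subclusters were not separated in these values. *Pparg*, a lipid-sensing nuclear receptor, was at 14.3 and 5.16 CPM, the chemokine *Ccl17* at 17.8 and 6.45 CPM, the integrin *Itgax* at 59.8 and 22.4 CPM and the fusion gene *Dcstamp* at 14.9 and 5.28 CPM. The median log2 ratio of the list was -1.44, against 0.07 over all genes tested in the class. Over the class as a whole these 4 were lower while *Csf2ra* and *Csf2rb* were not. Within subclusters *Csf2ra* was lower in *C1qa*-like (-0.36 [-0.54 to -0.18]), *Ccl7*-led (-0.32 [-0.62 to -0.01]) and *Mgl2*-led cells (-0.16 [-0.31 to -0.01]). It was higher in *Ifit1*-like cells (0.56 [0.15 to 0.99]), and in the other subclusters the interval included 0.

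Of 8 granulocyte granule genes, 5 had 50 UMIs in macrophage-like cells and all 5 were past 2-fold higher there, where 2.51% of all genes tested were, with a median log2 ratio of 2.30. *Mmp8* was at 6.51 and 26.2 CPM, *Mmp9* at 2.82 and 18.4 CPM, *Cd177* at 2.60 and 14.2 CPM, *Lcn2* at 2.17 and 10.7 CPM and *Cebpe* at 1.84 and 4.43 CPM. The summed neutrophil markers in macrophage-like cells moved with them, at 811 and 1445 CPM, as did the number of *Vcan*-like cells, 46 and 1323. *Mmp9* was also a leading gene of the subcluster led by *Ctsk*, which had 1 control and 68 *Mrc1-DTR* cells. The part of each of these was not tested. *Csf3r*, also a neutrophil transcript, was at a log2 ratio of -0.30 in the same cells. In neutrophil-like cells 2 of 3 granule genes tested were higher (6.24% of all genes), *Mmp8* at 58.5 and 176 CPM and *Lcn2* at 404 and 1029 CPM, with no such difference in *Csf3r*. The summed neutrophil markers of this class were also higher, at 44419 CPM in control and 91433 CPM in *Mrc1-DTR*. The rise of the 2 granule genes is thus not particular to them, and the part of the mix of RNA in it was not tested.

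Of 9 genes of JAK-STAT signalling and feedback, the path downstream of the GM-CSF and G-CSF receptors, 1 was past 2-fold in macrophage-like cells. Of all genes tested there, 2.51% were past 2-fold higher and 4.64% lower. This was *Socs3*, a feedback inhibitor, at 121 and 254 CPM (log2 ratio 1.07), and *Socs2* (12.9 and 24.5 CPM, 0.92) and *Cish* (61.7 and 95 CPM, 0.62) stood below it. In neutrophil-like cells 2 of 5 tested were higher (6.24% of all genes), *Socs3* at 218 and 447 CPM and *Cish* at 10.6 and 62.8 CPM, the latter from 2 and 72 UMIs. In endothelial-like cells *Stat5a* alone of 8 tested was past 2-fold, and higher (1.96% of all genes). *Socs3* there was at 129 and 238 CPM (0.88). *Stat5b* alone of 9 tested was past 2-fold, and lower, in fibroblast-like cells (2.4% of all genes), at 106 and 39.5 CPM (-1.43). The same held in pericyte-like cells (2.27% of all genes).

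Of the genes that act with CSF1R or IL-34, 0 of 11 tested were past 2-fold in macrophage-like cells (median log2 ratio 0.20). Over all genes tested in the class 2.51% were higher and 4.64% lower, so few would be looked for in such a list. *Spi1*, which encodes PU.1, was at 353 and 404 CPM and *Irf8* at 155 and 103 CPM. In fibroblast-like cells *Spi1*, *Irf8* and *Tyrobp*, all macrophage genes that moved with the markers above, were past 2-fold higher, and *Sdc1*, a proposed receptor of IL-34, was at 52.0 and 79.3 CPM. In the family of the common beta chain, *Il3* had 1 UMI in all, *Il5ra* 1 UMI in a mast-like cell, and *Il5* was at 188 and 75.5 CPM in NK- or T-like cells (306 and 107 UMIs, log2 ratio -1.32), where 31 and 3 UMIs of *Csf2* were found.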

How the data were processed

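Per the study's methods, the authors aligned reads to mm10 with Cell Ranger (6.1.1 in the file header and the submitters' processing notes, another version in the methods) and deposited raw UMI counts per gene and barcode. The methods state technical but no biological replicates. Kept cells had 500 or more genes and no more than 6% of UMIs from mitochondrial genes. Cells above 2000 genes, which the methods exclude, were retained, since 55.9% and 52.2% of barcodes lie above it. Doublets were scored by Scrublet (scanpy 1.11.5): its threshold removed 382 control cells, and in *Mrc1-DTR*, where it called 0, the top 8% of scores (575 cells) were removed. Clusters came from Seurat 5.3.0 in R 4.3.3 (2000 variable genes without the 8 members, 30 components, resolution 0.2 for all cells and fibroblast-like, 0.5 for macrophage-like and 0.3 for dendritic-like and lymphoid cells). Classes were named "-like" from marker lists when at least 3 markers were raised 2-fold (50 CPM added) and found in 10% of cells. A stricter naming of subclusters was adopted after the clusters were seen. The myocyte-like class (7 and 11 cells) is not described, and Langerhans-like and mast-like cells, under 50 in a library, have no count of members past 2-fold.

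Counts were summed by class and library and divided by the class total. Levels have Poisson intervals, ratios conditional binomial intervals and shares Clopper-Pearson intervals (95%), a share of 0 also the limit that 3 counts give, computed in Python 3.11.15 with numpy 2.4.6 and scipy 1.17.1. Equal depth means 1000 UMIs drawn per cell, shallower cells left out. A member was counted past 2-fold from 50 UMIs in a class. Named genes are the members, the 5 pathway lists and the 3 genes with the most similar pattern to each member, of which some are not reported here. Members and lists were chosen with earlier results of these data known. Scripts were tested on simulated data. Alternatives were doublets kept, the 2000-gene limit, 10% mitochondrial UMIs, members among the variable genes, resolution 0.4, 1 CPM added, median-of-ratios scaling, minima of 20 and 200 UMIs and other thinning depths. Leaving out subclusters with macrophage genes or the cells richest in a ligand was chosen after seeing the data.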

Additional observations from a re-analysis of the deposited data

Results flagged for a closer look

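With all cells kept, the log2 ratio of *Csf2* had opposite signs in different classes, and the differences between classes were not tested. It was 1.19 in fibroblast-like and 3.76 in pericyte-like cells but -3.17 in NK- or T-like cells, the last from 31 and 3 UMIs. Without the cell with most in each library the NK- or T-like value was -2.13 [-5.36 to 0.10], so no direction is read there. Without the 5 such cells the pericyte-like counts were 0 and 8 UMIs, with an interval from -0.18 upward.

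*Csf3* had opposite directions among fibroblast-like subclusters, and these differences were not tested either. Its log2 ratio was 1.16 in subcluster 1 and 1.46 in subcluster 3, where 1 cell held nearly all *Mrc1-DTR* UMIs, but -2.01 in subcluster 2, where 1 cell held 21 of the 39 *Mrc1-DTR* UMIs.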

How the results depend on the processing

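No paired analysis was possible because each group has 1 library and no replicate numbers. With 1 library per group there is no replicate to leave out.

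Scaling by the median of ratios gave log2 ratios of -0.16 for *Csf1r*, 0.17 for *Csf2rb* (macrophage-like), -1.17 for *Csf1* and 0.15 for *Csf3* (fibroblast-like). The median gene moved by a log2 ratio of 0.13 in fibroblast-like and -0.11 in neutrophil-like cells under scaling by totals. Removing cells over 2000 genes, which leaves few, gave -0.90 for *Csf1* and 1.69 for *Csf3* in fibroblast-like, -0.065 for *Csf2ra* in macrophage-like, 1.94 for *Il34* in epithelial-like and 0.48 for *Csf2* in NK- or T-like cells, the last pair against 0 *Mrc1-DTR* UMIs set to 3 counts and so without a direction. Keeping doublets gave 0.31 for *Csf2rb*, 0.39 for *Csf3* and -0.56 for *Csf3r* (neutrophil-like). Up to 10% mitochondrial UMIs gave -1.17 for *Csf1* and 0.21 for *Csf3*. For *Csf2rb*, members among the variable genes gave 0.28 and resolution 0.4 gave 0.30.

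Chosen after seeing the data, leaving out fibroblast-like subcluster 4 gave -0.98 for *Csf1*, leaving out epithelial-like subcluster 6 gave -0.51 for *Csf1r* (main value 2.18), and leaving out the 1 or 5 cells richest in *Csf3* gave -0.044 and -0.31 in fibroblast-like cells. The cause was not tested in any of these.

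The count of pairs past 2-fold was 10 of 36. It was 1 of 13 with the 2000-gene limit, 6 of 27 with a minimum of 200 UMIs, 14 of 47 with one of 20 UMIs, 15 of 40 with doublets kept and 9 to 11 otherwise. The share over all genes was computed for the main setting only, so the other counts are not read as results about the members. Leaving out the subclusters with macrophage genes brought *Csf2ra*, *Csf2rb* and *Csf1* in fibroblast-like cells and *Csf1r* in epithelial-like cells inside 2-fold. Over the main values and shares, 56 alternatives gave a value inside the counting interval (for the count, within 1.5-fold) and 45 outside.

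Shares with a UMI depend on depth. At 2000 UMIs and at full depth they were 51.9% and 73.8% (control) and 49.2% and 83.0% (*Mrc1-DTR*) for *Csf1r*, 30.6% and 53.5%, then 35.5% and 70.0% for *Csf2ra*, and 65.9% and 80.4%, then 73.1% and 92.0% for *Csf2rb* in macrophage-like cells. For *Csf1* in fibroblast-like cells they were 61.7% and 87.2%, then 38.9% and 74.7%, for *Csf3* 6.47% and 11.1% in control and 15.1% at full depth in *Mrc1-DTR*, for *Il34* in epithelial-like cells 2.56% and 12.7% in control and 1.31% and 15.3% in *Mrc1-DTR* (so that the order of the libraries turns with depth), and for *Csf3r* in *Mrc1-DTR* neutrophil-like cells 59.1% and 66.4%.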

Other observations

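The genes whose levels followed each member most closely over 16 points (8 classes in 2 libraries, which share libraries and depth) are given as a description by Pearson's r of log2(CPM + 1). *Csf2ra* went with *Alox5ap* (0.996), *Spi1* (0.988) and *Cd300a* (0.982), *Csf1r* with *Fcgr2b* (0.962), *Trps1* and *Clec4a3*, *Csf2rb* with *Csf2rb2* (0.961), *Nrros* and *Nuak2*, and *Csf3r* with *Arl11* (0.971), *Tlr13* and *Cd33*. Among the ligands, *Csf1* went with *Cebpd* (0.958), *Mgp* and *Rtn2*, *Il34* with *Tpm2* (0.956) and *Slc6a9*, *Csf3* with *Arsa* (0.942), *Ldb2* and *Col15a1*, and *Csf2* with *Enpp2* (0.911), *Fam171b* and *Map6*.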
